A study of Homo sapiens with 6 samples.

Results

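Neuroblastoma is attacked in the clinic and in trials through molecules on its cell surface, and 7 genes behind such molecules are described here across the 6 libraries of a BCAT1 knockdown experiment. B4GALNT1 and ST8SIA1 encode Golgi enzymes that build the ganglioside GD2, and CD276, GPC2, L1CAM, NCAM1 and DLK1 encode surface proteins. The 7 were found by gene symbol among the 64252 Ensembl genes of the count table, each in a single row. Of the 7, 6 passed the filter on low counts that left 18734 genes for testing, and ST8SIA1 did not.

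The cells were SK-N-BE(2), a human neuroblastoma line with amplified MYCN, and RNA of whole cultures was sequenced. Per the labels they were transfected with hairpin 2 against BCAT1, hairpin 1 against BCAT1 or a control hairpin (shControl), with 2 libraries in each of the 3 groups. BCAT1 is the cytosolic enzyme that moves the amino group of branched-chain amino acids. Every group carried a hairpin, all came from the same line, and the labels do not say how long after transfection the cells were harvested.

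GD2 is a glycolipid made in steps from glucosylceramide. Lactosylceramide receives a sialic acid to give GM3, ST8SIA1 (GD3 synthase) adds another to give GD3, and B4GALNT1 (GM2/GD2 synthase) adds N-acetylgalactosamine to turn GD3 into GD2 or GM3 into GM2. Antibodies to GD2 are an established treatment of high-risk neuroblastoma. CD276 (B7-H3) is an immune checkpoint protein of the B7 family, and GPC2 is a glypican, a heparan sulfate proteoglycan held in the membrane by a lipid anchor. L1CAM and NCAM1 are immunoglobulin-type adhesion molecules of neurons, and DLK1 is an imprinted transmembrane relative of the Notch ligands. These surface proteins have been pursued as targets of antibodies or engineered T cells in this tumour.

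Promoter sequences are shown for the member that was nearly silent, for the most abundant member, and for the member whose level differed most between the hairpins. They are RefSeq windows of 300 bases on GRCh38.p14, from 250 bases before to 50 after a start, and 4 of the 7 members had an entry. Every window shown lies within the gene coordinates given below, so none stands at a gene's outermost annotated start. Capitals mark the GC box letters GGGCGG on either strand, with overlapping matches run together.
ST8SIA1, chr12:22334658-22334957, minus strand: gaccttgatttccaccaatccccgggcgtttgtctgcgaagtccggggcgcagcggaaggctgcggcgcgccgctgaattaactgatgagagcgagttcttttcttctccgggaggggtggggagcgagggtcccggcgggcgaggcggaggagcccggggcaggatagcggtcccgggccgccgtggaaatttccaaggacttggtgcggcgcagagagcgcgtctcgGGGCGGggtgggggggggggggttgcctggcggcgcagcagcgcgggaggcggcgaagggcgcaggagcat
CD276, chr15:73684133-73684432, plus strand: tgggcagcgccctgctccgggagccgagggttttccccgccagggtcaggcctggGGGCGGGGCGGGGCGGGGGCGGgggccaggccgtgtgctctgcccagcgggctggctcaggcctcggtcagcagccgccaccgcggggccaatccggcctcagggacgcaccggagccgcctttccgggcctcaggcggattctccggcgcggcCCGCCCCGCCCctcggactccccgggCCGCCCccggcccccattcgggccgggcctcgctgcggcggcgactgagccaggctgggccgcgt
L1CAM, chrX:153875895-153876194, minus strand: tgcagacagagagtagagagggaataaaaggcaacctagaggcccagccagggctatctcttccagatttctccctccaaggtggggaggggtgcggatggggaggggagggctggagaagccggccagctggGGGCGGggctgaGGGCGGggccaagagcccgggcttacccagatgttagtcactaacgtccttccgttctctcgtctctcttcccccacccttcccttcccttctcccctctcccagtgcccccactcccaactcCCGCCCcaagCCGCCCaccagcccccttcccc

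The ST8SIA1 window held 1 GC box, the CD276 window 7 and the L1CAM window 4. GGGCGG was found in 45.0% of the 35116 RefSeq promoters scanned, so its presence is common. The GC content was 70.3% for ST8SIA1, 80.3% for CD276 and 64.7% for L1CAM, against a median of 58.7% over all these promoters. The CG dinucleotide occurred 35 times in the ST8SIA1 window, 37 times in that of CD276 and 10 times in that of L1CAM, with a median of 14 over all promoters. None of the 6 windows of the 4 members, the second entries of CD276 and L1CAM and that of GPC2 included, held the E-box CACGTG or the letters TATAAA. These stood in 7.26% and 11.5% of all promoters. Such matches describe letters only, and no binding was measured.

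Libraries held 32333416 to 39321388 counts. The labels do not say whether the 2 libraries of a group came from separate cultures, so every p-value reflects the variation among these libraries alone, and that variation may be technical. BCAT1 checked the labels: it stood at 116 and 111 CPM (the counts of a gene relative to the scaled library total) with hairpin 2, at 55.8 and 55.3 CPM with hairpin 1, and at 459 and 475 CPM in control. MYCN stood at 1702 and 1816 CPM with hairpin 2, 1821 and 1828 CPM with hairpin 1, and 2251 and 2271 CPM in control. Adrenergic neuroblastoma markers were all detected, with summed levels of 1341 to 1342 CPM with hairpin 2, 1382 to 1459 CPM with hairpin 1 and 1675 to 1739 CPM in control. SOX10 of Schwann cells and melanocytes and CD3E of T cells were at 0 in every library.

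Calls among the tested members went in different directions and often came with a single hairpin, in data where many genes of all kinds were called. A value over both hairpins sets the mean of the 2 hairpin groups against control. Over both hairpins, 2 members rose (L1CAM and NCAM1), 3 fell (B4GALNT1, CD276 and DLK1) and GPC2 did not pass the test, at an edgeR adjusted p under 0.05. The median log2 fold change of the 6 was -0.34, against -0.01 over all genes tested. Over all 18734 genes tested, 23.6% were called higher and 26.4% lower in that comparison. With hairpin 2, 1 member rose and 3 fell, where 23.9% of all genes were called higher and 25.4% lower. With hairpin 1, 1 member rose and 2 fell, where 24.2% of all genes were called higher and 24.9% lower. Between hairpin 2 and hairpin 1, 1 member was higher and 3 were lower with hairpin 2, where 22.9% of all genes were called higher and 23.3% lower. Because so many genes were called, the counts of every list below are to be read beside these shares. The size of each difference is given with it. Both hairpin comparisons share the 2 control libraries, so their folds are not independent of each other.

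**Figure D1:**
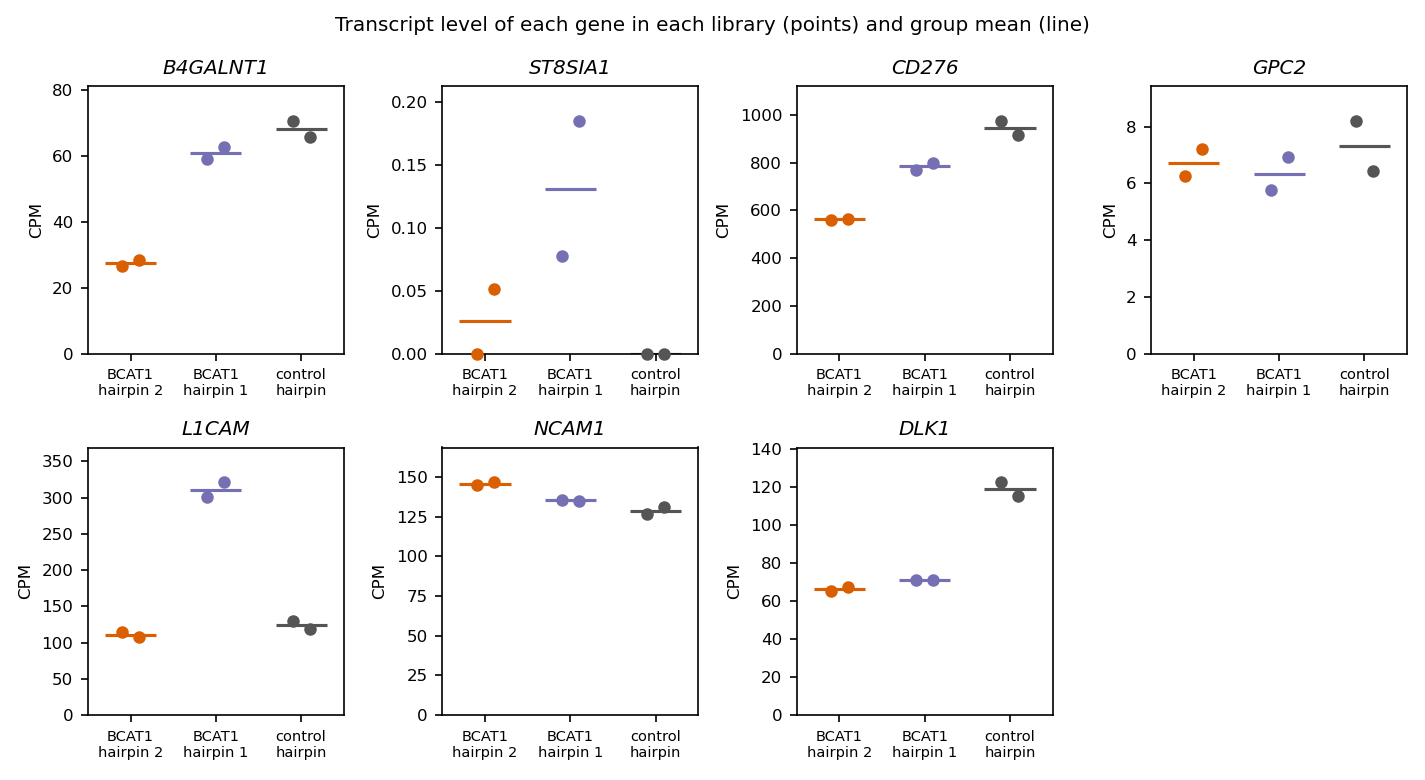
Level of each member in CPM (y axis, from 0, a scale per panel) in the 6 libraries, with hairpin 2 at the left, hairpin 1 in the middle and control at the right. Points are libraries and lines are group means. B4GALNT1 is low with hairpin 2 alone, L1CAM is high with hairpin 1 alone, and DLK1 is low with both.

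Of the GD2 enzymes, the later one was well expressed and the earlier one was barely counted. B4GALNT1 (chromosome 12, 57623410 to 57633355, minus strand, hg38) stood at 26.7 and 28.4 CPM with hairpin 2, at 59.1 and 62.8 CPM with hairpin 1, and at 70.7 and 65.8 CPM in control. Both hairpin 2 libraries lay below all others, while the hairpin 1 libraries lay close under the controls. With hairpin 2 it fell 2.48-fold (log2 fold change -1.31, edgeR adjusted p = 3.3e-06, SE 0.06). After correction for GC content and length this fall was smaller (-1.07, edgeR adjusted p = 4.7e-08). With hairpin 1 the log2 fold change was -0.16 (edgeR adjusted p = 0.057, SE 0.06), a call gained without control replicate 2 (-0.22, edgeR adjusted p = 0.042) and a sign that turned after correction for GC content and length (0.04, edgeR adjusted p = 0.53). The difference of hairpin 2 from hairpin 1 passed on its own test (-1.15, edgeR adjusted p = 2.8e-06, SE 0.06). Mesenchymal neuroblastoma markers summed to 5287 to 5474 CPM with hairpin 2, 6977 to 7380 CPM with hairpin 1 and 6988 to 7026 CPM in control, and leukocyte markers, mostly CD68, to 14.4 to 17.9, 29.1 to 33.7 and 34.5 to 37.8 CPM in that order. Both sums were thus lowest with hairpin 2, as B4GALNT1 was. VIM and CD44 made up most of the mesenchymal sum, and SNAI2 of the same list was highest with hairpin 2, at 64.3 CPM against 50.8 CPM with hairpin 1 and 58.1 CPM in control. Of CD68, 81.7% of exon bases overlap AC016876.2 on the same strand. The part of these markers in the result was not tested. In bulk RNA, fewer cells that express a gene and less of its RNA per cell cannot be told apart.

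Of B4GALNT1's exon bases, 26.7% overlap SLC26A10 on the opposite strand, and whether counting used strand is not given in the sources used here. SLC26A10 had 88 and 84 counts with hairpin 2, 72 and 59 with hairpin 1, and 45 and 45 in control. Its counts were small beside those of B4GALNT1 (1076 and 1105 with hairpin 2, 2293 and 2039 with hairpin 1, 2674 and 2435 in control), and they were higher where B4GALNT1 was lower.

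ST8SIA1 (chromosome 12, 22063773 to 22437041, minus strand, hg38) had 0 and 2 counts with hairpin 2, 3 and 6 counts with hairpin 1, and 0 and 0 counts in control. A count of 0 allows a level of up to 0.0793 and 0.0811 CPM in the control libraries, taking 3 counts as the limit and covering counting error only. When no filter on low counts was used, edgeR gave ST8SIA1 an adjusted p of 0.47 with hairpin 2, 0.13 with hairpin 1 (0.04 before adjustment) and 0.24 over both. At this depth no difference was detectable for this gene. GD2 itself, a lipid, was not measured.

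The other steps of ganglioside synthesis included calls in both directions. Of 12 genes listed, 11 were tested: 2 rose and 5 fell over both hairpins (median log2 fold change -0.12, against -0.01 over all genes tested). The shares of all genes called in that comparison were 23.6% higher and 26.4% lower. With hairpin 2, 2 rose and 2 fell (median -0.10), and with hairpin 1, 2 rose and 6 fell (median -0.27). The shares of all genes were 23.9% higher and 25.4% lower with hairpin 2, and 24.2% and 24.9% with hairpin 1. UGCG, the glucosylceramide synthase that starts the pathway, stood at 91.6 and 90.7 CPM with hairpin 2, 29.6 and 24.6 CPM with hairpin 1, and 43.6 and 53.2 CPM in control. It thus rose with hairpin 2 (0.92, edgeR adjusted p = 0.00014, SE 0.10) and fell with hairpin 1 (-0.83, edgeR adjusted p = 0.00029, SE 0.11), and the control libraries lay between the hairpins.

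B4GALT5 and B4GALT6 make lactosylceramide. B4GALT5 rose over both hairpins by 0.16 on the log2 scale (edgeR adjusted p = 0.0037, a call lost in the GC and length correction), and B4GALT6 by 0.24 (edgeR adjusted p = 0.038), a direction that B4GALT6 lost once GC content and length were corrected for (-0.05). B4GALT6 did not pass with hairpin 2 (0.20, edgeR adjusted p = 0.11). ST3GAL5, the GM3 synthase directly before ST8SIA1, stood at 27.2 ± 0.988 CPM with hairpin 2, 20.8 ± 0.863 CPM with hairpin 1 and 23.3 ± 1.79 CPM in control (SD, n = 2 each), and neither hairpin passed against control.

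The sialyltransferases ST3GAL1 and ST3GAL2 act on gangliosides beyond GM2 and GD2 and on other sugars. ST3GAL1 stood at 102 and 101 CPM with hairpin 2, 46.4 and 44.1 CPM with hairpin 1, and 99.2 and 101 CPM in control. It had 0.02 with hairpin 2 (edgeR adjusted p = 0.67, and -0.14 after the GC and length correction). It fell with hairpin 1 by 1.14 in log2 units (edgeR adjusted p = 7e-07, SE 0.04), and hairpin 2 stood above hairpin 1 by 1.17 (edgeR adjusted p = 4.4e-07, SE 0.04). ST3GAL2 fell with each hairpin, by 0.46 with hairpin 2 (edgeR adjusted p = 0.00013) and by 0.54 with hairpin 1 (edgeR adjusted p = 4.6e-05). ST6GALNAC6, which makes alpha-series gangliosides, fell with hairpin 1 by 0.78 (edgeR adjusted p = 5.6e-05) and had -0.10 with hairpin 2 (edgeR adjusted p = 0.28), a value that turned to 0.20 after the GC and length correction. Of its exon bases, 47.0% overlap AL157935.2 on the same strand, so its counts are uncertain. ST3GAL3 and ST6GALNAC3 fell over both hairpins by 0.31 and 0.24 (edgeR adjusted p = 0.0089 and 0.022), and exons of ST3GAL3 overlap AL451062.3 on the same strand. ST6GALNAC3 did not pass with hairpin 2 (-0.22, edgeR adjusted p = 0.061). B3GALT4 and ST6GALNAC5 did not pass in any comparison, and ST8SIA5 was not past the filter.

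**Figure D2:**
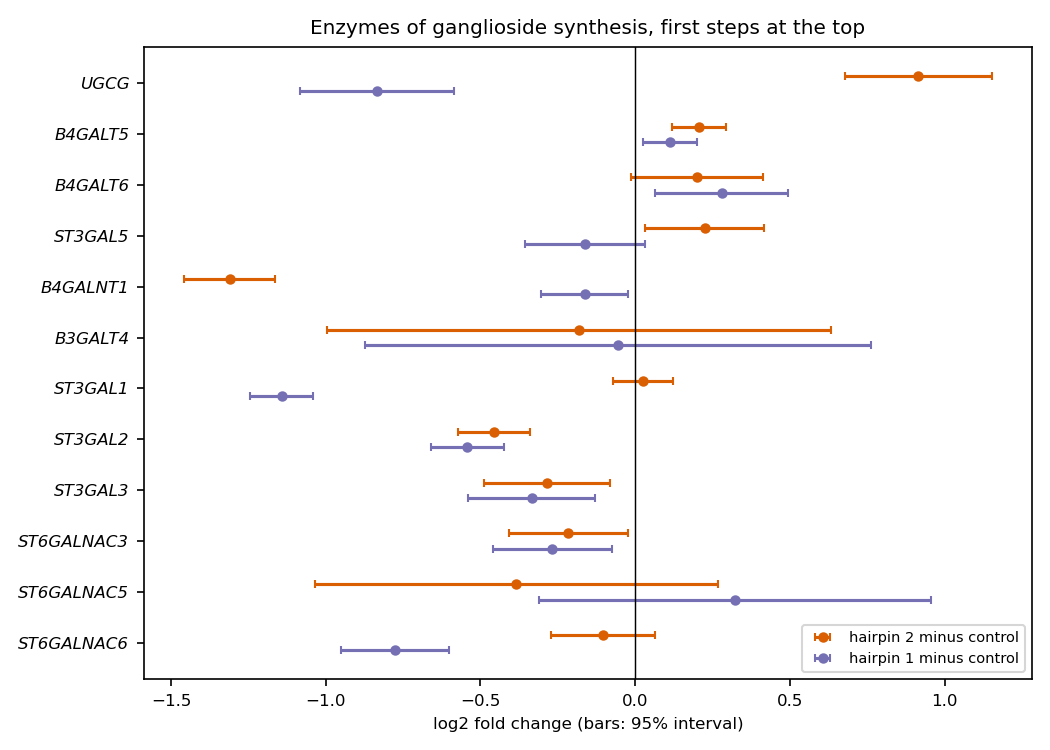
Log2 fold change (x axis) of B4GALNT1 and the other tested ganglioside synthesis genes with hairpin 2 and hairpin 1 against control, with 95% intervals. UGCG lies on opposite sides of 0 with the hairpins, and ST3GAL1 and ST6GALNAC6 are low with hairpin 1.

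Of 6 tested genes of sialic acid supply, 1 rose and 1 fell over both hairpins (median log2 fold change 0.11), 0 were called with hairpin 2, and 1 rose and 2 fell with hairpin 1. Between hairpin 2 and hairpin 1, 2 were higher and 2 lower with hairpin 2, beside the 22.9% and 23.3% of all genes given above. CMAS, which activates sialic acid, rose with hairpin 1 by 0.46 (edgeR adjusted p = 0.00018), and NANP, which releases it from its phosphate, fell by 0.48 (edgeR adjusted p = 0.0064). GNE, which makes the first precursors, varied within groups, with 51.4 and 51.4 CPM with hairpin 2, 30.6 and 63.6 CPM with hairpin 1, and 43.4 and 16.5 CPM in control, and did not pass.

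Of 10 ganglioside breakdown genes, 9 were tested: 1 rose and 6 fell over both hairpins (median log2 fold change -0.25). Among all genes, 23.6% were called higher and 26.4% lower in that comparison. With hairpin 2, 2 rose and 5 fell (median -0.18), and with hairpin 1, 0 rose and 4 fell (median -0.30). GM2A, the GM2 activator protein of the lysosome, stood at 13.0 and 12.1 CPM with hairpin 2, 31.8 and 28.8 CPM with hairpin 1, and 31.6 and 31.2 CPM in control. It fell with hairpin 2 alone (-1.32, edgeR adjusted p = 8.4e-06, SE 0.08), with -0.05 for hairpin 1 (edgeR adjusted p = 0.64), and hairpin 2 differed from hairpin 1 by -1.27 (edgeR adjusted p = 7e-06, SE 0.08).

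CD276 was the most abundant member and fell with each hairpin. CD276 (chromosome 15, 73683966 to 73714518, plus strand, hg38) stood at 558 and 565 CPM with hairpin 2, 768 and 799 CPM with hairpin 1, and 975 and 915 CPM in control. The 3 groups did not overlap, with hairpin 2 lowest. It fell 1.68-fold with hairpin 2 (log2 fold change -0.75, edgeR adjusted p = 6.7e-06, SE 0.04) and 1.21-fold with hairpin 1 (-0.27, edgeR adjusted p = 0.0011, SE 0.04). The hairpins differed by -0.48 (edgeR adjusted p = 4.8e-05, SE 0.04). After the GC and length correction the falls were -0.54 with hairpin 2 and -0.11 with hairpin 1 (edgeR adjusted p = 0.014).

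The other B7 family members stood far below CD276, and 4 of 9 were tested. Over both hairpins 1 rose and 1 fell (median log2 fold change -0.12), beside 23.6% of all genes called higher and 26.4% lower. NCR3LG1 (B7-H6), a ligand of the natural killer receptor NKp30, stood at 16.4 and 16.0 CPM with hairpin 2, 19.1 and 16.5 CPM with hairpin 1, and 5.47 and 5.22 CPM in control. It rose by 1.60 with hairpin 2 and 1.73 with hairpin 1 on the log2 scale (edgeR adjusted p = 1.2e-05 and 5.5e-06, SE 0.11 each). ICOSLG, a ligand of the T cell co-stimulator ICOS, stood at 0.347 and 0.385 CPM with hairpin 2, 1.68 and 1.97 CPM with hairpin 1, and 1.88 and 2.05 CPM in control. It fell with hairpin 2 (-2.41, edgeR adjusted p = 1e-04, SE 0.26) and had -0.11 with hairpin 1 (edgeR adjusted p = 0.71). CD274 (PD-L1) averaged 1.37 CPM with hairpin 2, 1.24 CPM with hairpin 1 and 1.27 CPM in control, and did not pass.

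GPC2 was the lowest of the tested members, and no comparison passed. GPC2 (chromosome 7, 100169606 to 100177372, minus strand, hg38) stood at 6.27 and 7.20 CPM with hairpin 2, 5.75 and 6.93 CPM with hairpin 1, and 8.20 and 6.43 CPM in control. The groups overlapped. The log2 fold change was -0.12 with hairpin 2 (95% interval -0.49 to 0.25, edgeR adjusted p = 0.57) and -0.21 with hairpin 1 (-0.58 to 0.16, edgeR adjusted p = 0.33). The intervals allow changes in either direction, so GPC2 is not shown to be alike in the groups, and after the GC and length correction the signs turned (0.17 with hairpin 2 and 0.04 with hairpin 1).

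Of the 5 other glypicans and NOTUM, the enzyme that cuts glypicans from their lipid anchor, 3 were tested. NOTUM stood at 2.80 and 3.32 CPM with hairpin 2, 9.08 and 7.77 CPM with hairpin 1, and 8.99 and 8.70 CPM in control. It fell with hairpin 2 (-1.53, edgeR adjusted p = 5e-05, SE 0.14), and hairpin 2 differed from hairpin 1 by -1.46 (edgeR adjusted p = 6.3e-05, SE 0.14). GPC1 fell with hairpin 2 by 0.31 (edgeR adjusted p = 0.0052, lost after the GC and length correction), and over both hairpins its sign turned after the GC and length correction (0.03). GPC6 rose with hairpin 2 by 0.29 (edgeR adjusted p = 0.011), a sign that turned after that correction (-0.12).

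L1CAM had the largest rise of any member, with hairpin 1 alone. L1CAM (chromosome X, 153861514 to 153886174, minus strand, hg38) stood at 115 and 107 CPM with hairpin 2, 301 and 321 CPM with hairpin 1, and 130 and 119 CPM in control. Both hairpin 1 libraries lay far above the other 4. It rose 2.50-fold with hairpin 1 (log2 fold change 1.32, edgeR adjusted p = 1.3e-06, SE 0.06). Hairpin 2 had -0.16 (edgeR adjusted p = 0.052, SE 0.06). That value was -0.23 without control replicate 2, and -0.05 after the GC and length correction (edgeR adjusted p = 0.39). The hairpins differed 2.80-fold (-1.48, edgeR adjusted p = 6.4e-07, SE 0.06). The rise over both hairpins (0.58, edgeR adjusted p = 4.3e-05) is the mean of these unlike values.

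Small parts of L1CAM's exons overlap LCA10 on the opposite strand (4.94% of exon bases) and U52112.1 on the same strand (6.04%). LCA10 had 0 and 0 counts with hairpin 2, 7 and 2 with hairpin 1, and 1 and 0 in control. How reads in the shared bases were assigned is not given in the sources used here, and U52112.1 was not analysed here. Fibroblast markers summed to 498 to 502 CPM with hairpin 2, 345 to 358 CPM with hairpin 1 and 511 to 526 CPM in control. The sum was thus lowest where L1CAM was highest, and COL1A1 and LUM made up most of it. DCN of the same list stood at 26.6 CPM with hairpin 2, 26.1 CPM with hairpin 1 and 31.6 CPM in control. It did not pass between the hairpins (edgeR adjusted p = 0.81). The part of these markers in the L1CAM result was not tested.

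NCAM1 changed least of the called members. NCAM1 (chromosome 11, 112961247 to 113278436, plus strand, hg38) stood at 145 and 147 CPM with hairpin 2, 136 and 135 CPM with hairpin 1, and 127 and 131 CPM in control. The groups did not overlap, but the gaps were small. It rose by 0.18 on the log2 scale with hairpin 2 (edgeR adjusted p = 0.005, SE 0.04), a sign that turned after the GC and length correction (-0.03, edgeR adjusted p = 0.56), and had 0.07 with hairpin 1 (edgeR adjusted p = 0.17; -0.11 after the correction). The hairpins differed by 0.11 (edgeR adjusted p = 0.048, SE 0.04), a call lost in 11 of 16 alternatives. Fold changes followed gene GC content: across 13824 protein-coding genes the Spearman correlation, a description over genes, was -0.47 with hairpin 2 and -0.32 with hairpin 1. The exons of NCAM1 had 48.6% GC and those of B4GALNT1, CD276, GPC2 and L1CAM 60.0% to 61.9%, against a median of 49.2%.

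Relatives of L1CAM and NCAM1 were also called. Of 4 other L1 and NCAM family members, 3 were tested, and 2 rose over both hairpins (median log2 fold change 0.53). Among all genes, 23.6% were called higher there. NRCAM, an L1 family adhesion molecule, stood at 350 and 338 CPM with hairpin 2, 520 and 512 CPM with hairpin 1, and 289 and 296 CPM in control. It rose by 0.24 with hairpin 2 (edgeR adjusted p = 0.0012), a sign that turned after the GC and length correction (-0.19), and by 0.82 with hairpin 1 (edgeR adjusted p = 1.5e-06). NCAM2 averaged 0.543 CPM with hairpin 2, 0.770 CPM with hairpin 1 and 0.280 CPM in control, and rose over both hairpins (1.20, edgeR adjusted p = 0.033, SE 0.39), a call lost after the correction. On its own, hairpin 2 did not pass for NCAM2 (0.945, edgeR adjusted p = 0.11). NFASC, a neurofascin of the L1 family, stood at 13.8 CPM with hairpin 2, 8.42 CPM with hairpin 1 and 11.0 CPM in control. It rose with hairpin 2 (0.33, edgeR adjusted p = 0.019, lost after the correction) and fell with hairpin 1 (-0.38, edgeR adjusted p = 0.011), and hairpin 2 differed from hairpin 1 by 0.71 (edgeR adjusted p = 0.00042).

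Of the 4 genes for polysialylation of NCAM1 and shedding of L1CAM, 3 rose over both hairpins (median log2 fold change 0.39). Among all genes, 23.6% were called higher there. ST8SIA2, which puts polysialic acid on NCAM1, rose by 0.38 with hairpin 2 and 0.24 with hairpin 1 (edgeR adjusted p = 0.00036 and 0.004). ADAM10, a protease that sheds L1CAM, rose by 0.27 with hairpin 2 (edgeR adjusted p = 0.0019; -0.35 after the GC and length correction) and by 0.51 with hairpin 1 (edgeR adjusted p = 5.5e-05, lost after the correction). ADAM17, a related sheddase, rose by 0.63 with hairpin 2 (edgeR adjusted p = 3e-05) and had 0.13 with hairpin 1 (edgeR adjusted p = 0.083), and hairpin 2 differed from hairpin 1 by 0.51 (edgeR adjusted p = 9.5e-05). Of its exon bases, 12.3% overlap IAH1 on the opposite strand.

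DLK1 fell with each hairpin. DLK1 (chromosome 14, 100725705 to 100738224, plus strand, hg38) stood at 65.2 and 67.3 CPM with hairpin 2, 70.8 and 71.0 CPM with hairpin 1, and 122 and 115 CPM in control. All 4 knockdown libraries lay below both controls. It fell 1.80-fold with hairpin 2 (log2 fold change -0.84, edgeR adjusted p = 4.8e-06, SE 0.05) and 1.68-fold with hairpin 1 (-0.75, edgeR adjusted p = 4.9e-06, SE 0.05). The difference between hairpins was -0.10 (95% interval -0.21 to 0.01, edgeR adjusted p = 0.12), and after the GC and length correction the falls were -0.78 with hairpin 2 and -0.73 with hairpin 1. The summed adrenergic markers were also lower in all 4 knockdown libraries, but the 8 markers did not move together. With hairpin 2, 1 rose (GATA3) and 7 fell. With hairpin 1, 4 rose (GATA3, DBH, TH and ISL1) and 4 fell, among them PHOX2A, the most abundant in control. Their part in the result was not tested.

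MEG3, the noncoding RNA of the same imprinted locus made from the other parental allele, was not lower with either hairpin. It stood at 160 and 151 CPM with hairpin 2, 102 and 107 CPM with hairpin 1, and 100 and 96.7 CPM in control. MEG3 rose with hairpin 2 (0.66, edgeR adjusted p = 1.3e-05, SE 0.05) and had 0.08 with hairpin 1 (edgeR adjusted p = 0.18), and hairpin 2 differed from hairpin 1 by 0.58 (edgeR adjusted p = 2.3e-05, SE 0.05). DLK2, the closest relative of DLK1, and DIO3, a deiodinase of the same locus, were near 1 CPM in control and lower over both hairpins (-1.52 and -1.44, edgeR adjusted p = 0.017 and 0.0027). On its own, hairpin 2 did not pass for DLK2 (-1.37, edgeR adjusted p = 0.054). RTL1 did not pass.

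**Figure D3:**
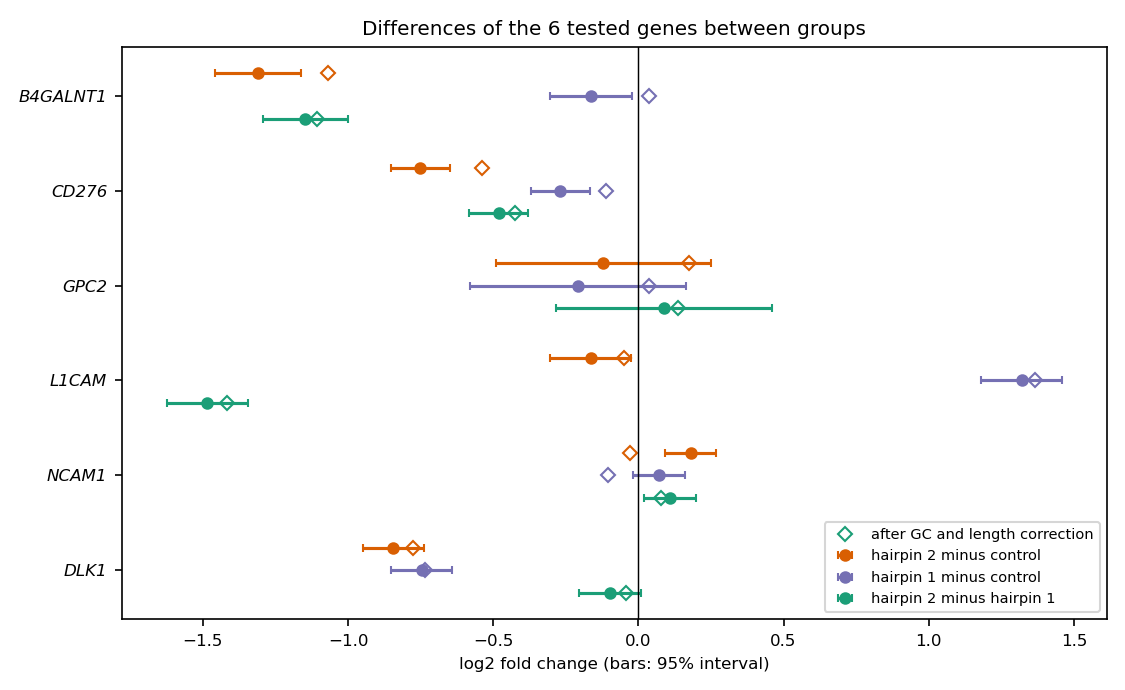
Log2 fold change (x axis) of the 6 tested members with hairpin 2 against control, hairpin 1 against control and hairpin 2 against hairpin 1. Dots have 95% intervals, and open diamonds are values after correction for GC and length. DLK1 and CD276 lie below 0 with both hairpins, and B4GALNT1 and L1CAM differ most between them.

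The other surface targets studied in neuroblastoma were called in both directions. Against control, SLC6A2, ALK and CD24 were called with hairpin 1 alone, and PVR with hairpin 2 alone. All 11 targets were called over both hairpins, 4 higher and 7 lower (median log2 fold change -0.54). The shares of all genes were 23.6% higher and 26.4% lower. With hairpin 2, 1 was higher and 7 were lower (median -0.41), and with hairpin 1, 4 were higher and 6 were lower (median -0.36). SLC6A2, the noradrenaline transporter that takes up the tracer MIBG, stood at 17.6 and 19.5 CPM with hairpin 2, 76.0 and 81.0 CPM with hairpin 1, and 20.7 and 19.8 CPM in control. It rose with hairpin 1 by 1.95 (edgeR adjusted p = 6.1e-07, SE 0.07), and had -0.12 with hairpin 2 (edgeR adjusted p = 0.2). Of its exon bases, 17.9% overlap AC136621.1 on the same strand.

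ALK, the receptor tyrosine kinase, stood at 22.6 and 21.8 CPM with hairpin 2, 46.7 and 46.1 CPM with hairpin 1, and 25.4 and 23.3 CPM in control. It rose with hairpin 1 (0.93, edgeR adjusted p = 1.4e-05, SE 0.07), and hairpin 2 had -0.13 (edgeR adjusted p = 0.16). MCAM, an adhesion molecule, fell with both, by 0.37 with hairpin 2 (edgeR adjusted p = 0.00027) and by 1.75 with hairpin 1 (edgeR adjusted p = 2.5e-07). CD47, the signal that holds off macrophages, fell by 0.77 with hairpin 2 and 0.64 with hairpin 1 (edgeR adjusted p = 1.2e-05 and 2.1e-05). EPHA2, an ephrin receptor, fell by 0.53 with hairpin 2 and 0.76 with hairpin 1 (edgeR adjusted p = 2.8e-05 and 3.8e-06).

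SSTR2, a somatostatin receptor used for imaging, fell by 0.73 with hairpin 2 and 0.36 with hairpin 1 (edgeR adjusted p = 8.3e-05 and 0.0041). NECTIN2 and PVR, ligands of receptors on natural killer cells, fell over both hairpins by 0.65 and 0.36 (edgeR adjusted p = 0.00059 and 0.0018). PVR fell with hairpin 2 by 0.53 (edgeR adjusted p = 0.00051) and had -0.18 with hairpin 1 (edgeR adjusted p = 0.077). DLL3, a Notch ligand, was at 2.01 CPM with hairpin 2, 1.30 CPM with hairpin 1 and 3.24 CPM in control, and fell over both hairpins by 1.00 (edgeR adjusted p = 0.0012). ROR1, a receptor-like kinase, rose by 0.44 with hairpin 2 (edgeR adjusted p = 0.013, lost after the GC and length correction) and by 1.02 with hairpin 1 (edgeR adjusted p = 0.00014). CD24 averaged 0.955 CPM with hairpin 2, 1.24 CPM with hairpin 1 and 0.522 CPM in control, and rose over both hairpins (1.05, edgeR adjusted p = 0.015). It rose by 1.24 with hairpin 1 (edgeR adjusted p = 0.012) and had 0.87 with hairpin 2 (edgeR adjusted p = 0.054). Its reads can be split with near-identical pseudogenes.

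**Figure D4:**
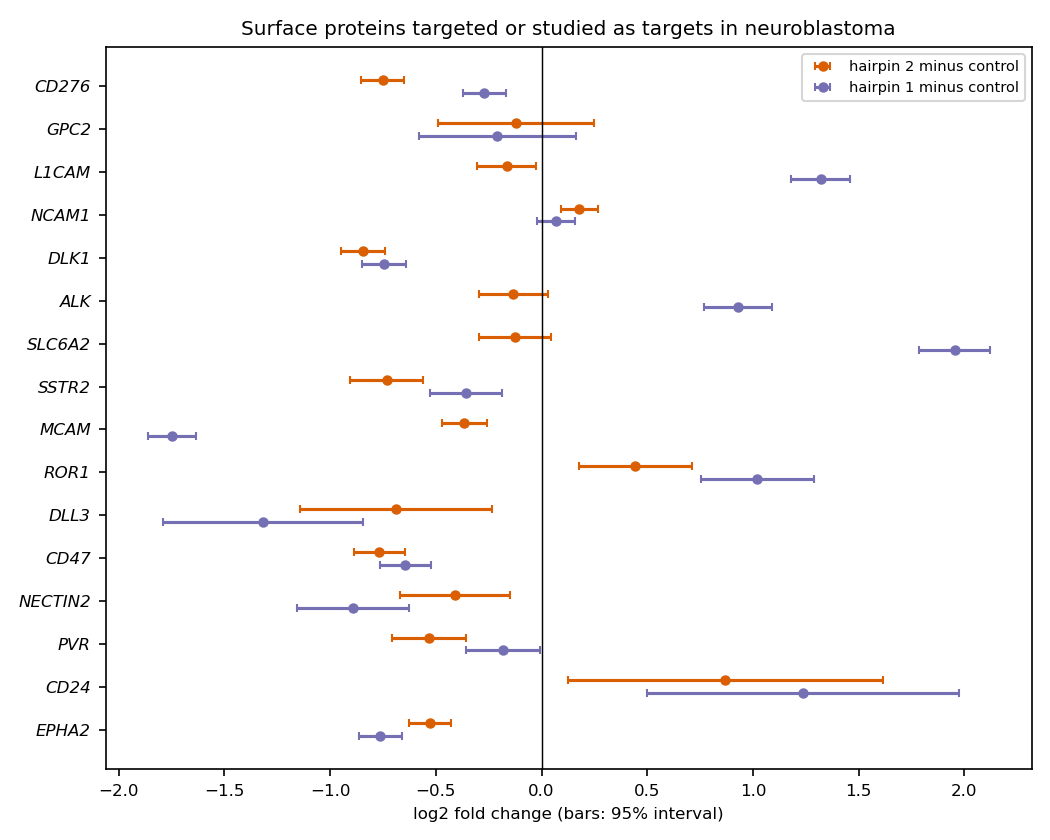
Log2 fold change (x axis) of the 5 surface protein members and the other surface targets with hairpin 2 and hairpin 1 against control, with 95% intervals. SLC6A2 and ALK are high with hairpin 1 alone, and MCAM, CD47 and EPHA2 are low with both.

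Levels of different members were compared per kilobase of exon. In control, CPM per kilobase was 171 for CD276, 22.4 for DLK1, 17.1 for L1CAM, 10.1 for NCAM1, 8.53 for B4GALNT1, 1.91 for GPC2 and 0 for ST8SIA1. CD276 lay at percentile 98.8 of the genes tested and GPC2 at percentile 41.7. With hairpin 2 the order was CD276 (101), L1CAM (15.3), DLK1 (12.5), NCAM1 (11.4), B4GALNT1 (3.44) and GPC2 (1.76). With hairpin 1 it was CD276 (141), L1CAM (42.8), DLK1 (13.3), NCAM1 (10.6), B4GALNT1 (7.62) and GPC2 (1.66). In each group, libraries of neighbours in the order did not overlap. Using the longest transcript as the length changed the order of the middle 4: in control DLK1 had 25.2, L1CAM 24.2, B4GALNT1 22.5 and NCAM1 21.3 CPM per kilobase.

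**Figure D5:**
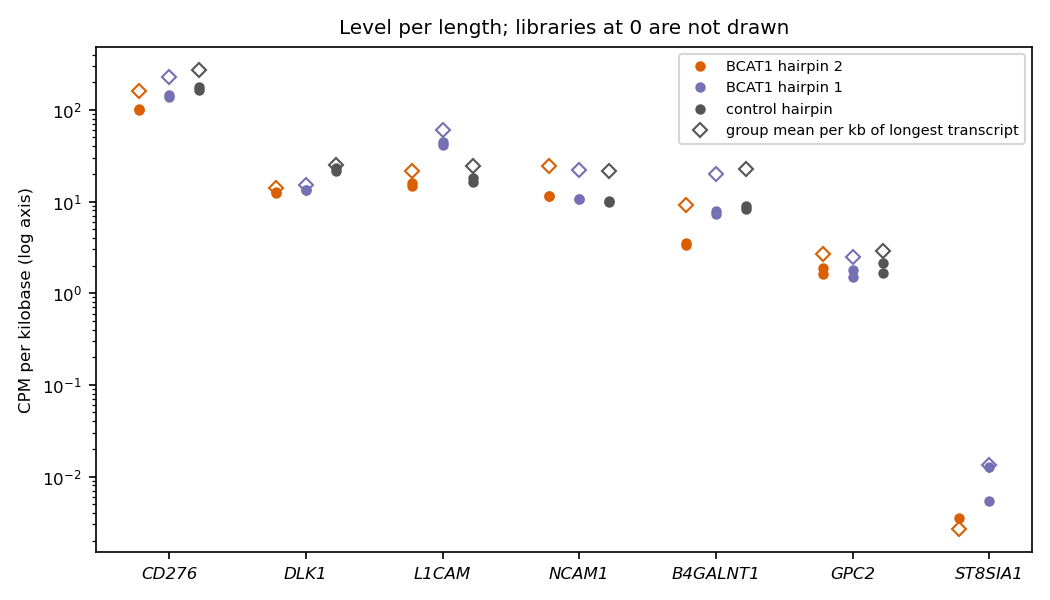
Level of each member in CPM per kilobase of exon (log axis) with hairpin 2, hairpin 1 and control. Dots are libraries, open diamonds are group means per kilobase of the longest transcript, and libraries at 0 are not drawn. CD276 lies highest and GPC2 lowest of the tested members in every group.

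Genes with the most similar pattern over the 6 libraries were found by the root-mean-square difference of log2 CPM, each gene centred on its own mean, among 10999 genes with a mean of at least 5 CPM. For B4GALNT1 they were TOMM5, MARCHF11 and PSMC1, with differences of 0.044, 0.065 and 0.069. For CD276 they were NUMBL, SCARB1 and CGREF1, at 0.026 to 0.031, and for GPC2 PIDD1, RNF32-DT and KLC4, at 0.051 to 0.075. For L1CAM they were NECAP1, AKNA and CELSR3, at 0.047 to 0.071, for NCAM1 GLUD1, PPP2CB and TRMT5, at 0.015 to 0.017, and for DLK1 SORBS3, MPST and CNTNAP1, at 0.031 to 0.033. With only 3 groups and 10999 genes, close matches are a description only.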

How the data were processed

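Messenger RNA was sequenced from SK-N-BE(2) cells in 6 libraries. Per the labels' protocols, TRIzol was used for total RNA and the TruSeq RNA kit for the libraries. The submitters' processing notes name HISAT2 2.2.0, StringTie and hg38. The annotation release and the use of strand are unknown. The authors deposited raw whole-number counts for each Ensembl gene, and every column was used. The 7 genes and all lists were chosen with earlier results of these data known.

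Symbols were found for 40995 of 64252 rows, and coordinates, exon lengths and overlaps came from GENCODE release 29. In R 4.3.3, the filter was filterByExpr by group (minimum count 10), the scaling TMM (factors 0.96 to 1.035) and the test edgeR 4.0.16 (quasi-likelihood, a term per group over all 6 libraries, 3 residual degrees of freedom), two-sided, with Benjamini-Hochberg adjustment over 18734 genes and a threshold of 0.05. The test was also run on simulated data with known changes in a small share of genes. Far more genes were called in the real data, so no conclusion on these calls is drawn from that run. Levels are CPM on TMM-scaled library sizes. SE and 95% intervals are on the log2 scale. Besides the 7 genes, BCAT1 and MYCN, at most 3 genes of each of 9 lists were named, those called over both hairpins with the largest log2 fold change, and the lists of ganglioside synthesis, of the L1 and NCAM family and of other surface targets were described in full. Some genes that this rule names are not reported here. GNE, CD274, RTL1, NFASC and single markers were named after their values were seen.

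Replicate libraries differed by more than sampling noise (mean chi-square per gene 5.87 to 8.63, where noise alone gives about 1), so none was a copy of another. Alternatives were RLE scaling, no filter, a floor of 1 CPM, limma-voom (limma 3.58.1), DESeq2 1.42.0, the replicate number as a block, fits of only the groups compared, a fold threshold of 1.5, a correction for GC content and length (mgcv 1.9.3), each library left out, and another transcript length.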

Additional observations from a re-analysis of the deposited data

Results flagged for a closer look

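All values here are log2 fold changes of hairpin 2 over hairpin 1, each past the threshold on edgeR's test of that difference itself (adjusted p under 0.05 over all genes tested), which 22.9% of all genes passed upwards and 23.3% downwards. Among the members, B4GALNT1 had -1.15, CD276 -0.48, L1CAM -1.48 and NCAM1 0.11. In ganglioside metabolism, UGCG had 1.75, ST3GAL1 1.17, ST6GALNAC6 0.67, ST3GAL5 0.39, GM2A -1.27, NANP 0.37 and CMAS -0.48. Among genes related to the surface proteins, ICOSLG had -2.30, NOTUM -1.46, GPC1 -0.26, NRCAM -0.58, NFASC 0.71, ADAM10 -0.24, ADAM17 0.51 and MEG3 0.58. Among the other surface targets, SLC6A2 had -2.08, ALK -1.06, ROR1 -0.58, SSTR2 -0.38, PVR -0.35, MCAM 1.38, DLL3 0.63, NECTIN2 0.48 and EPHA2 0.23. UGCG and NFASC rose with hairpin 2 and fell with hairpin 1, with both calls past the threshold. The cause of the differences between the hairpins was not tested.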

How the results depend on the processing

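B4GALNT1 and CD276 with hairpin 2, L1CAM with hairpin 1 and DLK1 with each hairpin kept direction and call in every alternative run. Of 378 values of the 6 tested members, 348 were counted as unchanged, 20 lost the call and 4 gained it. Another 6 turned direction with a call in the main or the alternative fit. A turned sign was counted as unchanged where neither fit passed, as for GPC2 against control after the GC and length correction. A fold threshold of 1.5 left 1039 genes called over both hairpins, 1769 with hairpin 1, 1397 with hairpin 2 and 1774 between the hairpins, and 2 members over both hairpins and 2 between them. Leaving out a library gave 7517 to 8889, 7725 to 8798, 7216 to 9202 and 6561 to 8732 genes in that order, with 4 to 5, 3 to 4, 4 to 5 and 3 to 4 members. NCAM1 over both hairpins lost its call without hairpin 2 replicate 1 or 2 or control replicate 1 (adjusted p up to 0.11). B4GALNT1 with hairpin 1 gained a call in limma-voom (adjusted p = 0.049), and L1CAM with hairpin 2 in DESeq2 (adjusted p = 0.037).

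Correction for GC content and length turned NCAM1 (-0.067 over both hairpins, -0.11 with hairpin 1, -0.027 with hairpin 2), GPC6 (-0.15, -0.19, -0.12), ADAM10 (-0.15 over both, -0.35 with hairpin 2), GPC1 (0.027), UGCG (-0.19) and B4GALT6 (-0.049) over both hairpins, B4GALT5 with hairpin 1 (-0.001), and ST3GAL1 (-0.14), ST6GALNAC6 (0.20) and NRCAM (-0.19) with hairpin 2. The cause was not tested. With the replicate number as a block too, the same results turned but for UGCG, with GPC1 at 0.028, B4GALT6 at -0.048 and GPC6 with hairpin 1 at -0.18. The list above holds turns with a call in the main fit or after the GC and length correction. Among member values without such a call, that correction turned GPC2 (0.11 over both hairpins, 0.04 with hairpin 1, 0.17 with hairpin 2). It also turned B4GALNT1 with hairpin 1 (0.04).

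The replicate block alone left 9000 genes called over both hairpins, 8802 with hairpin 1, 8841 with hairpin 2 and 8218 between hairpins, with 5, 3, 4 and 3 members. Deviations of same-numbered libraries correlated by -0.0331 (hairpin 2 with hairpin 1), -0.0377 (hairpin 2 with control) and 0.00435 (hairpin 1 with control). These small values show no common deviation over genes. The labels do not say whether same-numbered libraries were handled together. Depth limits ST8SIA1, at 0 to 6 counts per library.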
